A study of Mus musculus with 6 samples.

Results

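The genes described here encode the contractile apparatus of skeletal muscle and the proteins that release and retake its calcium, measured in iWAT, the white fat depot of the groin, from mice that lack Zip13 (Zip13-KO) and from wild-type (WT) littermates. They are 35 listed genes, each read by probes whose annotated transcript is a RefSeq transcript of the gene, out of 21368 genes that the array names in that way. The list holds 13 genes typical of fast fibres, 5 of slow fibres and 17 that both fibre types share or that belong to neither. A gene was tested if its signal stood well above background on each of the 3 arrays of WT, of Zip13-KO or of both, which 30 of the 35 genes and 15307 genes in all did. Myh1, Tnni1, Casq1, Cav3 and Myot did not meet this filter and are given as levels only.

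Zip13 (Slc39a13) encodes a zinc transporter, and the knockout allele carries a neomycin resistance cassette in place of exons 6 to 8 in every cell of the animal. The mice were on a C57BL/6J background after at least 7 generations of backcrossing, and the study describes its iWAT expression data for animals 10 weeks of age. Knockout and WT mice alike were given powdered food. Total RNA of 3 WT and 3 Zip13-KO samples was hybridised to 6 one-colour Agilent mouse arrays that share 1 slide. The labels name separate samples of each genotype without saying more of their origin, so the p-values measure the spread between these samples. Levels are normalized log2 intensities of a probe, so a level can be compared between arrays and not between genes.

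Muscle fibres shorten when myosin heads of the thick filament pull on actin thin filaments, and the troponin complex on the thin filament lets them do so only in the presence of calcium. Calcium is released from the sarcoplasmic reticulum through the ryanodine receptor, which the voltage sensor of the surface membrane opens, and is pumped back afterwards. Fast and slow fibres build the same machine from different gene copies, so that fibre types can be told apart by their myosins and troponins. Fat cells build no sarcomeres, whereas brown and beige fat cells share part of their energy metabolism with muscle.

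The promoters of 27 of the 35 genes were found in the RefSeq table of build GRCm38.p6, as 300-base windows whose first base lies at position -250 from the transcript start. The 6 printed here are a creatine kinase and an actin gene of all fibres, the fast and slow copies of troponin C, and the only 2 genes called changed, Myl1 and Tnnt1, which were added after their values were seen. They lie at chr7:19410844-19411143 (plus strand) for Ckm, chr8:123894726-123895025 (minus) for Acta1, chr2:164779685-164779984 (minus) for Tnnc2, chr14:31208062-31208361 (plus) for Tnnc1, chr1:66945007-66945306 (minus) for Myl1 and chr7:4515926-4516225 (minus) for Tnnt1. Each is written 5′ to 3′ on the strand of the gene, and capitals mark the E-box CANNTG, the motif bound by myogenic helix-loop-helix factors among others.
Ckm: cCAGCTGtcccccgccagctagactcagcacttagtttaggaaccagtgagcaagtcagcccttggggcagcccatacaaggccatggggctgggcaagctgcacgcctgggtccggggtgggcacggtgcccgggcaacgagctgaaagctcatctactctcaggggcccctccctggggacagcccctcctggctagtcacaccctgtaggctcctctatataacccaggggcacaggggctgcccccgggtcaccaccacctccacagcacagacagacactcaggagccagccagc
Acta1: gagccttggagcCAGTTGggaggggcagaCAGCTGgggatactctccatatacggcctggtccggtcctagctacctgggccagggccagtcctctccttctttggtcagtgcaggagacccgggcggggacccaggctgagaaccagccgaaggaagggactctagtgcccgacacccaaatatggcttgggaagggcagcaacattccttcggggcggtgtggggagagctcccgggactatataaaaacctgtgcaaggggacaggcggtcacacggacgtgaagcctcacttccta
Tnnc2: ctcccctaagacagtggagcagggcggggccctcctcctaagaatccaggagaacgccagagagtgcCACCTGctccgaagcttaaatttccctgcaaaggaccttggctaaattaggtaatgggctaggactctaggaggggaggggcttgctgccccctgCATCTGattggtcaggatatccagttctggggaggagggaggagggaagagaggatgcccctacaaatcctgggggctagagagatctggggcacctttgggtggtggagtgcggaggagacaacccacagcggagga
Tnnc1: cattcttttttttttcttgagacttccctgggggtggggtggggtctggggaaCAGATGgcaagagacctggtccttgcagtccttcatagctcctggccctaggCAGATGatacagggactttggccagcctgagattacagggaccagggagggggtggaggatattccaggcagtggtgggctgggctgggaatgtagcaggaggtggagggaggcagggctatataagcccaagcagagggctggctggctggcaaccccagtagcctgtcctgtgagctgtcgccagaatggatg
Myl1: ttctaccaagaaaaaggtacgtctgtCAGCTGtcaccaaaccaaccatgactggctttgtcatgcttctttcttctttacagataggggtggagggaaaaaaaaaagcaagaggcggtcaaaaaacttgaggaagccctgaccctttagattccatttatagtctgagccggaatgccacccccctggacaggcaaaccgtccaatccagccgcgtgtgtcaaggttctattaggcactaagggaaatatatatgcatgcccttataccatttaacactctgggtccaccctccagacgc
Tnnt1: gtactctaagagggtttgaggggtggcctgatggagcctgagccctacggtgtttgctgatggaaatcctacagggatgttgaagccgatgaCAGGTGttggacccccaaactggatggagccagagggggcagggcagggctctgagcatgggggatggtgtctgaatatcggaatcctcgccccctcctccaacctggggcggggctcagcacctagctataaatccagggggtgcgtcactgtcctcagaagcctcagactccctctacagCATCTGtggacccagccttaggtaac
Where a gene had several promoters in the table, only the first was searched, for the listed genes and for all. An E-box of any kind, which reads the same on both strands, occurred in 22 of the 27 promoters (81.5%). It occurred in 72.1% of 27025 promoters over all genes of the table. The narrower form CAGCTG, itself an E-box, occurred in 12 of 27 (44.4%) against 16.1% of all. Of the 6 promoters shown, those of Ckm, Acta1 and Myl1 hold CAGCTG. The consensus of MEF2, another regulator of muscle genes, occurred in 5 of 27 (18.5%) against 3.26% of all and in none of the 6 shown. These matches describe the letters of the windows and were not tested as binding sites.

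As a check of the labels, the level of Slc39a13 was 11.30, 10.87 and 10.72 on the WT arrays and 6.76, 6.66 and 6.47 on the Zip13-KO arrays, a log2 fold change of -4.33 ± 0.17 (SE, limma adjusted p = 0.00128). The labelled tissue was checked against 10 adipocyte markers, such as the adiponectin and perilipin genes, all of which were well above background and tested. Between 58.8% and 63.2% of the probe spots were well above background on each array, and no probe spot of any array was saturated. Any 2 arrays of 1 genotype correlated at 0.9856 or above across the 15307 genes tested. WT 1 to 3 and Zip13-KO 1 lay in one part of the slide and Zip13-KO 2 and 3 in the other. The contribution of slide position to the values below was not tested apart from the blocked values given with them.

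Most of the muscle genes had higher mean levels in Zip13-KO iWAT, but the arrays of the 2 genotypes overlapped for nearly all of them. Of the 30 tested genes, 24 had a higher mean in Zip13-KO, and the median log2 fold change over the 30 was 0.49 against -0.00044 over all genes tested. Only Myl1 was called higher and only Tnnt1 lower (limma, Benjamini-Hochberg adjusted p under 0.05 and over 1.5-fold), where 10.3% of all genes were called higher and 8.38% lower. All 3 Zip13-KO arrays lay above all 3 WT arrays for 2 genes, Myl1 and Mb, against 29.2% of all genes. Mb met the filter through its Zip13-KO arrays only, so its place in this count is a description. All 3 Zip13-KO arrays lay below all 3 WT arrays for 2 genes, Tnnt1 and Ryr1, against 25.9%. The groups overlapped for the other 26. In bulk tissue, more cells of a type and more RNA per cell cannot be told apart.

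Single arrays carried much of the spread. Zip13-KO 3 was the highest of the 6 arrays for 21 of the 30 genes (70%), against 12.5% of all genes tested, and WT 2 the lowest for 15 (50%), against 11.1%. Both held for 13 genes. WT 2 was also the lowest array for 77.8% of 9 smooth muscle markers and 60% of 10 brown and beige adipocyte markers, for which Zip13-KO 3 was the highest in 11.1% and 0%. The median SD within a genotype was 0.56 for these genes and 0.15 for all genes, on the log2 scale. The range of the 3 Zip13-KO arrays exceeded the difference between the genotype means for 27 of the 30 genes (90%), and for 37.8% of all genes.

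**Figure D1:**
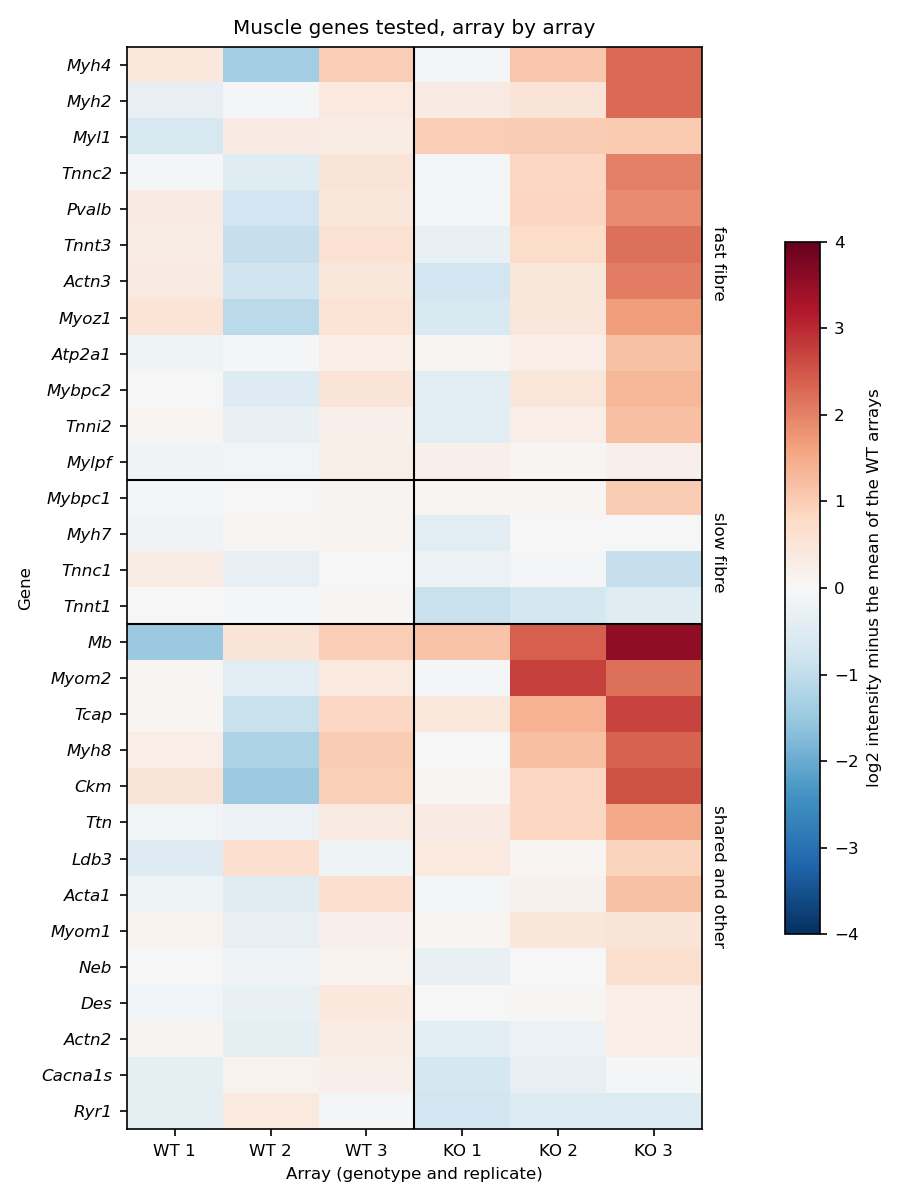
Heat map of the 30 tested muscle genes (rows, by fibre group and fold change) on the 6 arrays (columns), coloured by normalized log2 intensity minus the mean of the 3 WT arrays of that gene. The column of Zip13-KO 3 is the reddest for 21 genes and that of WT 2 the bluest for 15, while Myl1 and Tnnt1 differ between the genotypes on every array.

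The fast fibre genes had a median log2 fold change of 0.73, and all 12 tested had a value above 0. Relative to the WT mean, their median level was 0.05, -0.50 and 0.44 on WT 1 to 3 and -0.08, 0.51 and 1.78 on Zip13-KO 1 to 3. Zip13-KO 1 thus lay within the WT range and Zip13-KO 3 well above it. Their summed linear intensity ranged from 6013 to 9323 on the WT arrays and from 10430 to 18880 on the Zip13-KO arrays. Myl1 made up most of this sum on several arrays, 7757 of 10430 on Zip13-KO 1. Without Myl1 the sum was 3444, 2083 and 4408 in WT and 2672, 4872 and 10610 in Zip13-KO, and the genotypes overlapped.

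Among the thick filament genes of fast fibres, Myh4 encodes the myosin heavy chain of the fastest fibres. Its level was 9.52, 7.71 and 10.11 in WT and 9.04, 10.20 and 11.37 in Zip13-KO. Zip13-KO 1 lay below 2 of the WT arrays, and the log2 fold change was 1.09 ± 0.80 (SE, limma adjusted p = 0.321). Myh2, the heavy chain of fast oxidative fibres, read 4.48, 4.74 and 5.18 in WT and 5.12, 5.33 and 7.05 in Zip13-KO. Here 1 array, Zip13-KO 3, stood apart, and the fold change was 1.04 ± 0.52 (limma adjusted p = 0.168). Myh1, the intermediate fast heavy chain, read 2.89, 2.77 and 4.84 in WT and 3.59, 5.76 and 7.83 in Zip13-KO. It was well above background on WT 3, Zip13-KO 2 and Zip13-KO 3 only. Myh8, the perinatal heavy chain, was counted among the shared genes. Its levels were 9.21, 7.66 and 9.95 in WT and 8.96, 10.16 and 11.30 in Zip13-KO. Its order of arrays was that of Myh4. The log2 fold change was 1.20 ± 0.77 (limma adjusted p = 0.261), and a second Myh8 probe was not well above background on any array. The myosin heavy chain genes are close in sequence, and whether each probe reads 1 of them alone was not tested.

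Myl1, which encodes the essential light chains of fast myosin, was the only gene called higher. Its level was 11.33, 12.27 and 12.26 in WT and 12.92, 12.96 and 13.01 in Zip13-KO. All Zip13-KO arrays lay above all WT arrays and within 0.09 of each other, and WT 1 was the lowest. The log2 fold change was 1.01 ± 0.26 (2.02-fold, limma adjusted p = 0.0299, exact permutation p = 0.1, the smallest two-sided value that 3 against 3 arrays allow). The second probe, at a lower level, had a difference of 1.14 and likewise no overlap. The adjusted p rose to 0.0843, 0.0841 and 0.0819 when Zip13-KO 1, 2 or 3 was left out. Without the filter on dim probes it was 0.0602. Of the 12 fast fibre genes, Myl1 and Mylpf stood apart in the step from Zip13-KO 1 to Zip13-KO 3, which was 0.09 and -0.02 for them and between 1.11 (Atp2a1) and 2.81 (Actn3) for the other 10. The 10 adipocyte markers had a median level, relative to the WT mean, of -0.39, 0.22 and 0.16 in WT and 0.71, 0.63 and 0.67 in Zip13-KO, and like Myl1 were lowest on WT 1. Their summed linear intensity ranged from 531400 to 669500 in WT and from 759600 to 787300 in Zip13-KO. The part of adipocyte content in the Myl1 difference was not tested. Mylpf, the regulatory light chain of fast myosin, read 5.48, 5.49 and 5.85 in WT and 5.82, 5.65 and 5.80 in Zip13-KO. The genotypes overlapped (log2 fold change 0.15 ± 0.13, limma adjusted p = 0.380). This probe is annotated to a predicted transcript of Mylpf, and a second Mylpf probe was not well above background on any array. Mybpc2, fast myosin binding protein C, ranged from 5.93 to 6.96 in WT and from 6.05 to 7.79 in Zip13-KO. Its fold change was 0.47 ± 0.48 (limma adjusted p = 0.465).

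**Figure D2:**
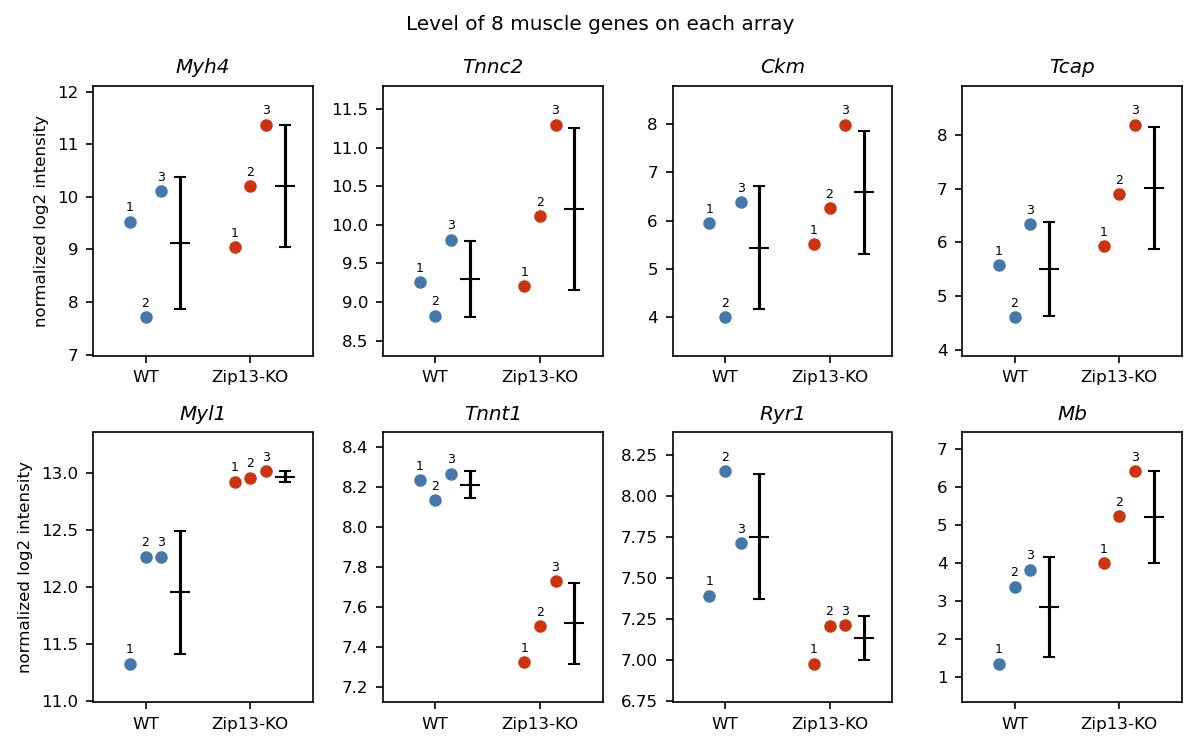
Normalized log2 intensity of 8 muscle genes on each array (numbered points: replicate), with the mean and SD of each genotype beside them (n = 3 each). The vertical axes differ and do not start at 0, and Myh4, Tnnc2, Ckm and Tcap overlap between genotypes with Zip13-KO 3 highest, whereas Myl1, Mb, Tnnt1 and Ryr1 do not overlap.

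The fast troponins regulate the thin filament. Tnnc2, the calcium-binding subunit, read 9.25, 8.82 and 9.81 in WT and 9.21, 10.11 and 11.30 in Zip13-KO. Zip13-KO 1 lay below WT 1, and Zip13-KO 2 and 3 lay above every WT array (log2 fold change 0.91 ± 0.54, limma adjusted p = 0.231). Tnnt3, the tropomyosin-binding subunit, read 7.98, 6.77 and 8.31 in WT and 7.38, 8.41 and 9.89 in Zip13-KO. Its 2 kept probes had the same sign, and the fold change was 0.87 ± 0.70 (limma adjusted p = 0.363). Tnni2, the inhibitory subunit, read 10.16, 9.80 and 10.30 in WT and 9.68, 10.34 and 11.29 in Zip13-KO. Zip13-KO 1 was the lowest array of all for this gene, and the log2 fold change of 0.35 ± 0.40 (limma adjusted p = 0.523) turned to -0.08 without Zip13-KO 3.

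Among the Z-disc and calcium genes of fast fibres, Actn3, the fast alpha-actinin that anchors thin filaments, read 6.05, 4.89 and 6.13 in WT and 4.93, 6.13 and 7.74 in Zip13-KO. The log2 fold change of 0.58 ± 0.73 (limma adjusted p = 0.566) turned to -0.16 without Zip13-KO 3. Myoz1, a Z-disc protein that binds calcineurin, read 5.55, 3.93 and 5.56 in WT and 4.40, 5.48 and 6.69 in Zip13-KO. Its fold change of 0.51 ± 0.69 (limma adjusted p = 0.593) turned to -0.07 without Zip13-KO 3 and to -0.03 without WT 2. Pvalb, the calcium buffer parvalbumin, read 8.48, 7.38 and 8.59 in WT and 8.09, 9.01 and 10.03 in Zip13-KO (0.90 ± 0.55, limma adjusted p = 0.246). Atp2a1, the calcium pump of the fast sarcoplasmic reticulum, read 6.23, 6.33 and 6.68 in WT and 6.49, 6.69 and 7.59 in Zip13-KO (0.51 ± 0.30, limma adjusted p = 0.228). Zip13-KO 3 was the highest array for each of these 4 genes, and Zip13-KO 1 lay within the WT range.

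Of the 4 slow fibre genes tested, Zip13-KO 3 was the highest of the 6 arrays for 1, Mybpc1, and WT 2 the lowest for none, and whether this differs from the fast fibre genes was not tested. Within Zip13-KO, replicate 3 was the highest for Mybpc1, Myh7 and Tnnt1. Their median level relative to the WT mean was -0.03, -0.05 and 0.08 in WT and -0.33, -0.03 and -0.23 in Zip13-KO, and the median log2 fold change was -0.27. This median rests in part on Tnnc1, which lay near the detection floor. It was -0.14 with detection required on all 6 arrays, which leaves Tnnc1 out, -0.057 without background correction and -0.011 with normexp background correction. Tnnt1, the slow tropomyosin-binding troponin, read 8.23, 8.13 and 8.27 in WT and 7.32, 7.51 and 7.73 in Zip13-KO. All Zip13-KO arrays lay below all WT arrays. The log2 fold change was -0.69 ± 0.12 (limma adjusted p = 0.0104), a WT level 1.62-fold that of Zip13-KO, and it passed the test without any 1 of the 6 arrays. A second, dimmer Tnnt1 probe differed by -0.11 with overlapping genotypes, and with the mean of both probes the fold change was -0.40 (limma adjusted p = 0.0720). With normexp background correction it was -0.54, under the fold threshold.

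Myh7, the slow myosin heavy chain, read 5.33, 5.53 and 5.59 in WT and 5.04, 5.49 and 5.50 in Zip13-KO (log2 fold change -0.14 ± 0.15, limma adjusted p = 0.511). Zip13-KO 3 lay within the WT range for this gene. Tnnc1, the slow and cardiac troponin C, read 3.98, 3.35 and 3.70 in WT and 3.45, 3.61 and 2.75 in Zip13-KO. It was well above background on all 3 WT arrays and on none of the Zip13-KO arrays, at levels so near the detection floor that no fold is given (limma adjusted p = 0.266). Mybpc1, slow myosin binding protein C, read 5.43, 5.48 and 5.62 in WT and 5.601, 5.598 and 6.51 in Zip13-KO (0.39 ± 0.26, limma adjusted p = 0.270). A second Mybpc1 probe, which was not kept, was well above background on 2 Zip13-KO arrays and on no WT array. All its Zip13-KO arrays lay above all its WT arrays, whose values were below the detection floor, so no fold is given. Tnni1, the slow inhibitory troponin, was well above background on Zip13-KO 1 only.

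Many of the genes that fibre types share had the order of arrays seen in the fast genes. Over the 14 tested, the median log2 fold change was 0.44 and the median level relative to the WT mean was -0.04, -0.32 and 0.37 in WT and 0.01, 0.32 and 1.03 in Zip13-KO. Zip13-KO 3 was the highest array for 9 of the 14 and WT 2 the lowest for 8. None of the 14 was called by limma. At an unadjusted p under 0.05, limma had 2 of them higher and 1 lower (Ryr1), against 25.3% and 21.8% of all genes. The methods' t-test had 0 of the 14, against 23.5% of all genes higher and 19.3% lower. The 2 higher were Ttn and Mb, the latter tested only because it passed the filter in Zip13-KO.

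In the thin filament and Z-disc, Acta1, skeletal muscle actin, read 9.33, 9.02 and 10.18 in WT and 9.45, 9.69 and 10.67 in Zip13-KO (log2 fold change 0.43 ± 0.42, limma adjusted p = 0.448). Neb, the ruler of the thin filament, had levels from 5.34 to 5.61 in WT and from 5.18 to 6.12 in Zip13-KO, and its fold change of 0.11 turned to -0.16 without Zip13-KO 3. Tcap, which caps titin at the Z-disc, read 5.57, 4.600 and 6.34 in WT and 5.93, 6.89 and 8.19 in Zip13-KO. Zip13-KO 1 lay below WT 3 and the other Zip13-KO arrays above every WT array (1.501 ± 0.67, limma adjusted p = 0.128). Actn2, the alpha-actinin of all fibres, ranged from 4.52 to 5.23 in WT and from 4.48 to 5.19 in Zip13-KO, with a fold change of -0.14 that turned to 0.015 without WT 3 and to 0.014 without Zip13-KO 1. Ldb3, a Z-disc adaptor, had its lowest and its second highest level both among the WT arrays (5.81 and 6.99), with a fold change of 0.45 ± 0.35 (limma adjusted p = 0.345). A second, dimmer Ldb3 probe differed by 0.28, and all its Zip13-KO arrays lay above all its WT arrays. Des, the muscle intermediate filament desmin, ranged from 7.79 to 8.51 in WT and from 8.08 to 8.35 in Zip13-KO. Its Zip13-KO arrays thus lay inside the WT range. Desmin is also made by smooth muscle, of which 9 marker genes were tested with a median fold change of 0.24. None of these 9 was called by limma, where 10.3% of all genes were called higher and 8.38% lower. At an unadjusted p under 0.05, limma had 3 of the 9 higher (33.3%, against 25.3% of all genes). The methods' t-test had 0 there (against 23.5%). The summed linear intensity of the 9 smooth muscle genes ranged from 22650 to 32070 in WT and from 31930 to 32400 in Zip13-KO, and their part in the Des values was not tested. Myot, the Z-disc protein myotilin, was well above background on Zip13-KO 3 only.

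In the elastic filament and the M-band, Ttn, titin, read 6.33, 6.18 and 6.77 in WT and 6.76, 7.25 and 7.94 in Zip13-KO. Zip13-KO 1 lay just below WT 3, and the log2 fold change of 0.89 ± 0.32 missed the threshold (limma adjusted p = 0.0747). Myom2, an M-band protein most abundant in fast fibres, was counted here among the shared genes. It read 5.23, 4.74 and 5.57 in WT and 5.11, 7.91 and 7.39 in Zip13-KO. Its highest array was Zip13-KO 2, the only tested gene of the 30 for which this was so. The fold change was 1.62 ± 0.72 (limma adjusted p = 0.129). Without Zip13-KO 1 it was 2.47 with an adjusted p of 0.0282 by limma, and without Zip13-KO 2 it was 1.07 and not called. Myom1, the M-band protein of all fibres, ranged from 5.98 to 6.52 in WT and from 6.397 to 6.85 in Zip13-KO (0.36 ± 0.19, limma adjusted p = 0.182).

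For energy and oxygen supply, Ckm, the muscle creatine kinase whose promoter is shown above, read 5.94, 3.99 and 6.38 in WT and 5.51, 6.25 and 7.99 in Zip13-KO. WT 2 lay far below and Zip13-KO 3 far above the other 4 arrays, which overlapped between genotypes, and the log2 fold change was 1.15 ± 0.84 (limma adjusted p = 0.320). Mb, the oxygen store myoglobin, read 1.35, 3.38 and 3.82 in WT and 4.01, 5.24 and 6.41 in Zip13-KO. All Zip13-KO arrays lay above all WT arrays, Zip13-KO 1 by a small margin over WT 3, and WT 1 was not well above background. The fold change of 2.37 ± 0.83 missed the threshold (limma adjusted p = 0.0712) and rests in part on that WT 1 value, which lies below the detection floor of its array. Without WT 1 it was 1.62 (limma adjusted p = 0.135). Mb entered the test through the Zip13-KO arrays, where it is high, so its difference is a description and is not counted as support.

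None of the calcium release genes was called by limma, and Ryr1 was lower at an unadjusted p under 0.05. Ryr1, the calcium release channel of the sarcoplasmic reticulum, read 7.39, 8.15 and 7.71 in WT and 6.98, 7.21 and 7.21 in Zip13-KO. All Zip13-KO arrays lay below all WT arrays, and the log2 fold change was -0.62 ± 0.20 (limma adjusted p = 0.0554, exact permutation p = 0.1). Without WT 1 it was -0.80 with a limma adjusted p of 0.0213, and without WT 2 it was -0.42. No other fit that left out 1 array called Ryr1. Cacna1s, the voltage sensor that opens the channel, read 8.49, 9.00 and 9.07 in WT and 8.16, 8.51 and 8.80 in Zip13-KO (-0.36 ± 0.22, limma adjusted p = 0.236), and its second probe differed by -0.28. Zip13-KO 3 was within the WT range of Cacna1s. Casq1, the calcium store protein of the reticulum, read 1.83, 1.42 and 3.22 in WT and 1.77, 3.67 and 4.92 in Zip13-KO and was well above background on Zip13-KO 3 only. As in many fast fibre genes, its lowest array was WT 2 and its highest Zip13-KO 3. Cav3, the muscle caveolin, read 5.39, 3.31 and 3.85 in WT and 3.77, 3.68 and 3.85 in Zip13-KO and was well above background on WT 1 and WT 3 only. Over all 35 genes, 8 had more than 1 kept probe, and in each of the 8 the kept probes differed between genotypes in the same direction.

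Leaving out 1 array moved the median log2 fold change of the 12 fast fibre genes between 0.19, without Zip13-KO 3, and 1.16, without Zip13-KO 1. For all 30 genes the same range was 0.15 to 0.82, again without Zip13-KO 3 and without Zip13-KO 1. For the 14 shared genes it was 0.25, without Zip13-KO 3, to 0.61, without WT 3. With the part of the slide as a block, the genotype difference rests on Zip13-KO 1 against the 3 WT arrays, which share its part. Under this fit 12 of the 30 genes were above 0 in place of 24. The medians were -0.07 for the 30, -0.08 for the fast fibre genes and 0.011 for the shared genes. No gene of the list was called by limma, where 0 of all genes were called higher and 7 lower. At an unadjusted p under 0.05, limma had 0 of the 30 higher and 3 lower (10%), against 17.8% and 13.6% of all genes. Myl1 was then at 0.97 and Tnnt1 at -0.89. Their signs could not turn under this block, because Zip13-KO 1 lay above all WT arrays for Myl1 and below all for Tnnt1.

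**Figure D3:**
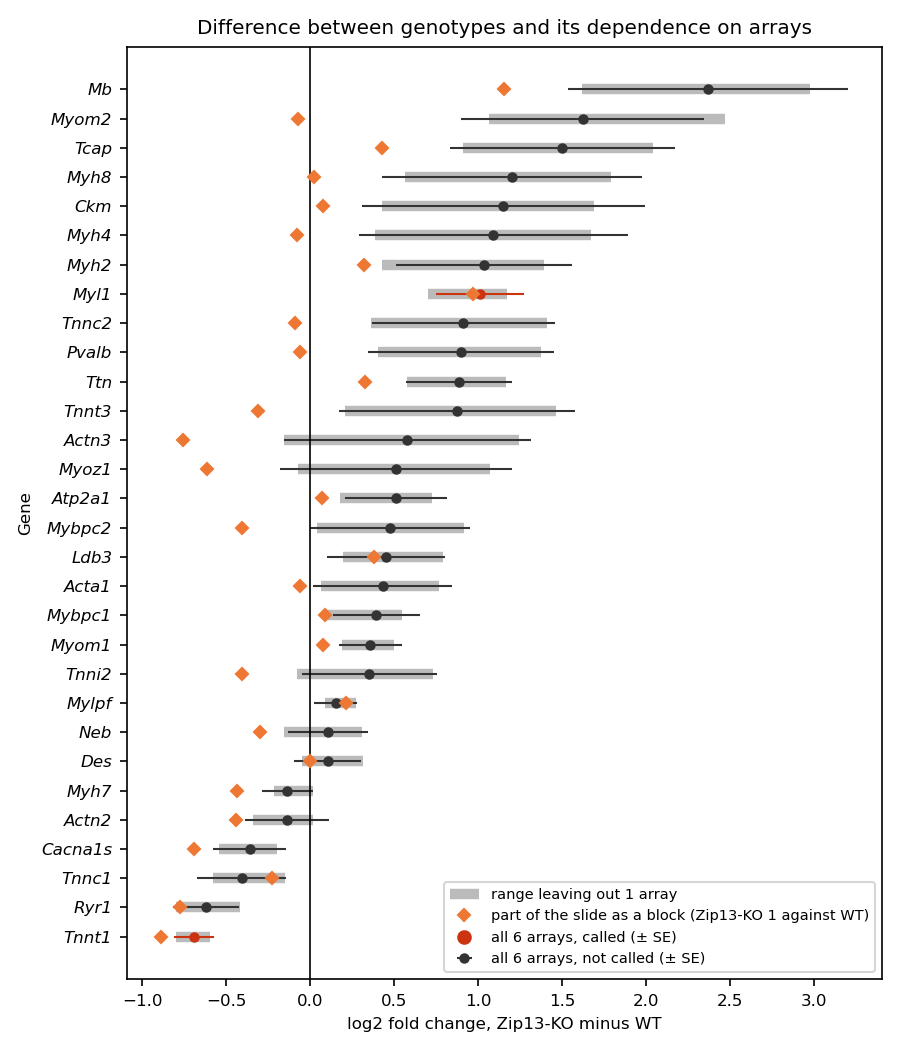
Log2 fold change (Zip13-KO minus WT) of the 30 tested genes with its SE (points and thin lines, called genes in red), the range of values when 1 of the 6 arrays is left out (grey bars), and the value with the part of the slide as a block, which compares Zip13-KO 1 with the WT arrays (diamonds). The diamonds of 12 genes lie on the other side of 0. Those of Myl1 and Tnnt1 stay near the points, as do those of uncalled genes such as Mylpf and Ldb3.

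Other genes of the same apparatus were taken from 4 further lists. Of 40 other sarcomere and Z-disc genes, 25 were tested, with 4 called higher (16% against 10.3% of all genes), 2 lower (8% against 8.38%) and a median log2 fold change of 0.28. These shares are near those of all genes. Myl3, the slow and cardiac essential light chain, read 6.05, 5.67 and 6.67 in WT and 8.13, 8.30 and 7.71 in Zip13-KO (1.92 ± 0.28, limma adjusted p = 0.00772). Myom3, a further M-band protein, had a fold change of 1.16 (limma adjusted p = 0.0269) that was not called without WT 3 (adjusted p = 0.0618) or without any 1 of the Zip13-KO arrays. Unc45b and Smyd1, a chaperone and a methyltransferase that serve myosin assembly, had fold changes of 0.99 (limma adjusted p = 0.00623) and 0.72 (limma adjusted p = 0.00548). Zip13-KO 3 was not the highest array for Myl3, Unc45b, Smyd1 or Myom3, and their genotypes did not overlap. Flnc, filamin C, had a fold change of -1.28 (limma adjusted p = 0.0430), a call lost without WT 2 (adjusted p = 0.0854) or any 1 Zip13-KO array. Tpm3, slow tropomyosin, which other cells also make, had a fold change of -0.60 (limma adjusted p = 0.00546). It fell short of the fold threshold without WT 2 (-0.577), with the mean of its kept probes (-0.44) and with 75th percentile scaling (-0.46).

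Of 25 other triad and calcium handling genes, 15 were tested, with 2 called higher (13.3% against 10.3% of all genes), none lower and a median of 0.08. At an unadjusted p under 0.05, 2 were lower by limma and by the methods' t-test (13.3%, against 21.8% and 19.3% of all genes). Srl, sarcalumenin, a calcium-binding protein of the reticulum, read 4.96, 5.98 and 5.68 in WT and 6.92, 7.14 and 7.31 in Zip13-KO (1.59 ± 0.27, limma adjusted p = 0.0101). Dysf, dysferlin, which repairs surface membranes, rose by 0.98 (limma adjusted p = 0.00781). The lowest of this list was Cacng1, a subunit of the voltage sensor, at -0.83 (limma adjusted p = 0.271), and without Zip13-KO 3 it was -0.17.

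Of 19 muscle energy supply genes, 17 were tested, with 7 called higher (41.2% against 10.3% of all genes) and none lower (against 8.38%). At an unadjusted p under 0.05, 1 was lower by limma and by the methods' t-test (5.88%, against 21.8% and 19.3% of all genes). The median log2 fold change of the 17 was 0.54. The highest, Fabp3, a fatty acid binding protein, read 7.599, 5.40 and 6.50 in WT and 9.24, 12.67 and 11.88 in Zip13-KO (4.77 ± 0.98, limma adjusted p = 0.0160). Its call was lost without Zip13-KO 2 or 3 (limma adjusted p = 0.0513 and 0.0524). Fabp3, Cox7a1 and Cox8b, 3 of the 7 called, are also among the 10 brown and beige adipocyte markers, all 10 of which were called higher, with a median of 2.46. Zip13-KO 2 was the highest array for each of these 10 markers, and Zip13-KO 3 for none. The summed linear intensity of the 10 ranged from 36370 to 58340 in WT and from 163100 to 258900 in Zip13-KO. The lowest energy gene, Cox6a2, the muscle form of a cytochrome oxidase subunit, was at -0.73 (limma adjusted p = 0.179). Without Zip13-KO 3 it was -1.15 (limma adjusted p = 0.0281), and without Zip13-KO 1 it was -0.45.

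Of 20 muscle precursor and junction genes, 13 were not well above background on any array, among them Myod1, Myf5, Myog and Pax7, which mark muscle stem cells and their differentiation. The 4 that were tested ran from -0.47 for Mef2c to 0.49 for Chrnb1. None was called by limma, where 10.3% of all genes were called higher and 8.38% lower. At an unadjusted p under 0.05, limma had 1 of the 4 lower (25%, against 21.8% of all genes) and 0 higher (against 25.3%). The methods' t-test had 0 there, against 23.5% of all genes higher and 19.3% lower. Of 8 heart markers, 5 were tested and none was called by limma. At an unadjusted p under 0.05, 1 was higher and 1 lower by either test (20% each, where all genes had the shares just given). The 5 heart markers ran from -0.28 for Nppa to 0.86 for Nppb. Nppb read 4.22, 3.47 and 3.81 in WT and 3.90, 3.79 and 6.38 in Zip13-KO, and its fold change was 0.012 without Zip13-KO 3.

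**Figure D4:**
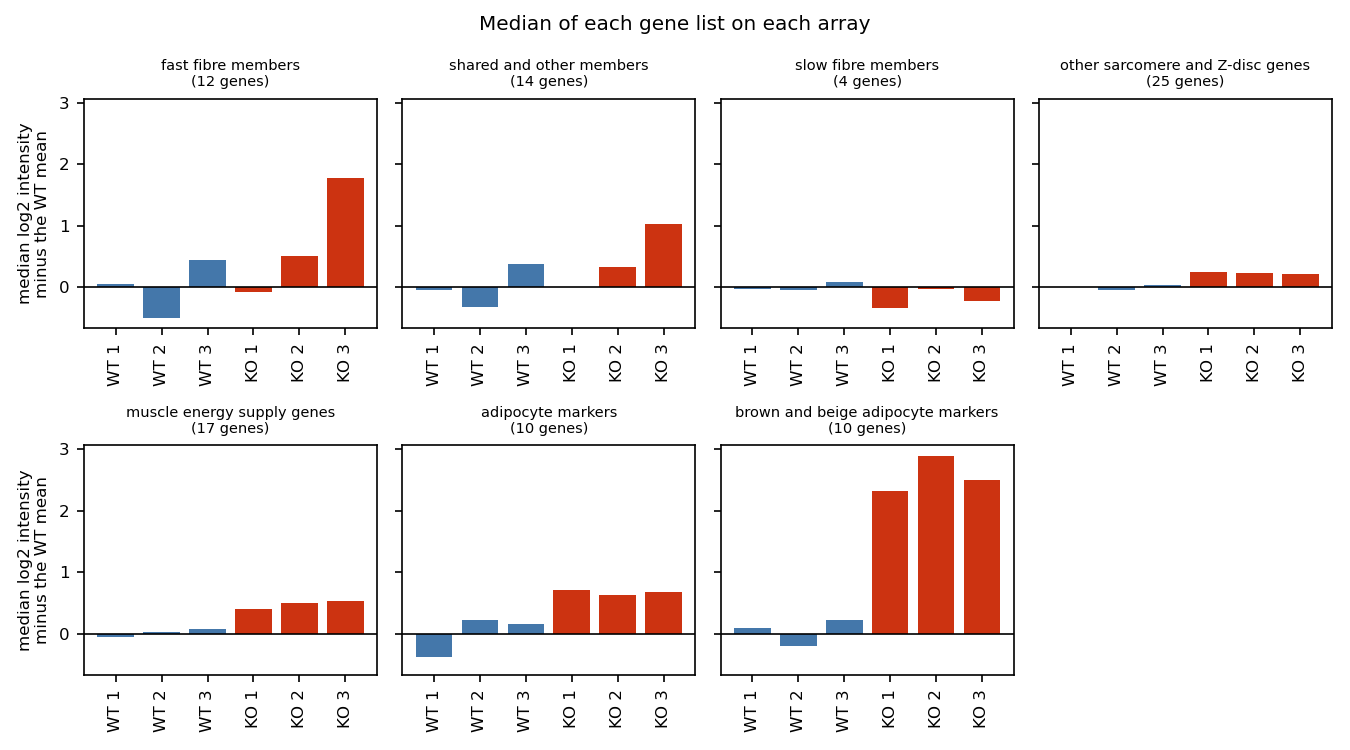
Median normalized log2 intensity of 7 gene lists on each array, relative to the mean of the WT arrays of each gene (blue bars, WT; red bars, Zip13-KO). The fast fibre genes run from -0.50 on WT 2 to 1.78 on Zip13-KO 3, while the other sarcomere genes, the energy genes and the adipocyte lists are at similar heights on all 3 Zip13-KO arrays.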

How the data were processed

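Total RNA of iWAT from 3 WT and 3 Zip13-KO samples was labelled with 1 dye and scanned once on 1 slide. Per the file headers, Agilent Feature Extraction 11.5.1.1 gave the deposited intensity of each spot, with local background subtracted (processed signal) and without, and a flag for spots well above background. The deposited log2 values of the authors rank probes exactly as the median spot signal does (rank correlation 1 on every array) and served as an alternative.

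Control spots were left out, spots of 1 probe were averaged, and log2 processed signals were quantile normalized over 55681 probes, 13 of which had no value on at least 1 array. Probes with a signal well above background on each of the 3 arrays of either genotype were retained (33039 probes, 20316 of them named by a RefSeq transcript), and the brightest kept probe stood for its gene. limma 3.58.1 in R 4.3.3 was fitted over all 15307 genes. A gene was called at an adjusted p under 0.05 and a log2 fold change over 0.58. The thresholds and the quantile normalization are those of the study's methods, and limma stands in for their combined test. A script for the fit was tested on simulated data. A detection floor was set per array for dim genes. The number of arrays limits the precision.

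The 35 genes and the other lists were chosen with earlier results of these data known, so lists are described by counts and medians beside those of all genes tested. Every gene of the list is named. Of the other lists, the highest, the lowest and, where 5 or fewer were called, the called genes are named. Alternatives covered scaling, background, filter, probe choice, test, blocks, thresholds and leaving out each array.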

Additional observations from a re-analysis of the deposited data

How the results depend on the processing

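Tnnt1 and Myl1 remained called under most of the settings tried, and single arrays turned the direction of fold changes of up to 0.58 (Actn3). The count of listed genes called higher was 2 with normexp background correction (Myl1 and Ttn) and 3 with the replicate block. Of all genes, 1156 and 1278 were called higher there, against 1576 as reported. It was 0 without a filter and with the methods' t-test adjusted by Benjamini-Hochberg, where 1376 and 1007 of all genes were called higher. It was also 0 with the part of the slide as a block and at an adjusted p under 0.01, where 0 and 707 of all genes were called higher. The count of listed genes called lower was 2 with 75th percentile scaling, the intensity trend, array weights and the replicate block (Ryr1 joins Tnnt1). Of all genes, 1212, 1320, 1470 and 1051 were called lower there, against 1282 as reported. It was 0 with normexp, with the mean of the kept probes, with the slide block and at 0.01, where 908, 1287, 7 and 505 of all genes were called lower. Leaving out 1 array gave 0 to 1 listed genes higher and 1 to 2 lower, with 961 to 1671 of all genes higher and 782 to 1455 lower. The methods' t-test without adjustment called Myl1 and Tnnt1, with 1552 of all genes called higher and 1246 lower.

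The labels do not say whether the replicate numbers pair samples. Over all genes tested, deviations of same-numbered arrays from their genotype means correlated at -0.02, 0.04 and -0.08. Such deviations from means of 3 arrays cannot decide whether samples were paired. With the replicate numbers as a block, Mb, Myl1 and Ttn were called higher and Ryr1 and Tnnt1 lower. Each replicate number holds a WT and a Zip13-KO array, so this block cannot change a fold change or a median. The medians under this block therefore say nothing of stability.

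The slow fibre median was -0.011 with normexp, -0.057 without background correction, -0.053 with the deposited values and -0.14 with no filter or with detection on all 6 arrays, where Tnnc1 and Tnni1 enter or leave, and -0.39 to -0.18 over the fits that leave out 1 array. The slide block took the median of all listed genes to -0.069 of the fast fibre genes to -0.083 and of the shared genes from 0.44 to 0.011.

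Fold changes that turned were Myh7 (0.0066) and Actn2 (0.034) with normexp, Actn2 without background correction (0.00014) and with the deposited values (0.0039), and Actn2 (0.018) and Ldb3 (-0.0073) with array weights. With the slide block they were Myh4 (-0.077), Actn3 (-0.76), Tnnt3 (-0.31), Tnni2 (-0.41), Tnnc2 (-0.089), Mybpc2 (-0.41), Myoz1 (-0.61), Pvalb (-0.062), Acta1 (-0.059), Neb (-0.30), Myom2 (-0.076), Des (-0.0032) and the smooth muscle gene Tagln (-0.0059). Leaving out 1 array gave ranges of -0.34 to 0.015 for Actn2, -0.16 to 1.25 for Actn3, -0.048 to 0.31 for Des, -0.21 to 0.015 for Myh7, -0.072 to 1.07 for Myoz1, -0.16 to 0.31 for Neb, -0.076 to 0.73 for Tnni2 and -0.12 to 0.23 for Tagln. The causes were not tested. With the slide block the limma fit called 0 of all genes higher and 7 lower, so a lost call there says little of stability. Over all genes tested, 707 were higher and 505 lower at an adjusted p under 0.01, and 2951 and 2330 without the fold threshold. Signal near background limits Myh1, Tnni1, Tnnc1, Casq1, Cav3, Myot and Mb.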
